A study of Mus musculus with 6 samples.

Results

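The 10 genes described here encode RNA-binding proteins that set alternative splicing in heart muscle: Rbm20, Rbm24, Rbfox1, Rbfox2, Celf1, Celf2, Mbnl1, Mbnl2, Qk and Ptbp1. They were taken by gene name from the deposited table of 54532 genes, and all 10 were found. The transcriptomes were those of hearts from 3 Mc4r knockout (KO) and 3 wild-type (WT) mice at 12 weeks of age, with 1 polyA-selected library per mouse. Mc4r encodes the melanocortin-4 receptor, a hypothalamic receptor that restrains food intake. KO mice were homozygous for the Mc4r knockout and WT mice were littermates from heterozygous matings. Both groups were on a C57B/6/N background and standard chow, with no other allele or treatment named. The sample titles call the tissue muscle, the tissue labels call it heart, and the study describes it as left ventricle. The comparison asks whether loss of Mc4r alters transcript levels in the young adult heart.

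Alternative splicing lets 1 gene give several transcripts, and its outcome at an exon depends on which RNA-binding proteins sit on the flanking intron sequence. In cardiomyocytes, RBM20 represses exons of titin and of several calcium-handling genes, RBM24 promotes inclusion of muscle exons, and the RBFOX and MBNL proteins favour adult exons where CELF1 favours fetal ones. The values below are gene-level transcript abundances, in fragments per kilobase of gene length scaled to sequencing depth (FPKM). The study states that FPKM was computed from gene length and mapped reads. Which mapped reads the depth term counted is not given further in the sources used here. They measure how much mRNA of each regulator was present and do not measure splicing or protein.

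The libraries held 14767929, 14888500 and 16047003 reads on genes in the WT mice and 14691076, 15535174 and 15649074 in the KO mice. Defining cardiomyocyte transcripts were abundant in every library, and those of skeletal muscle were near 0: summed over 8 skeletal muscle markers, FPKM lay between 1.08 and 2.32, and Myh4 was listed at 0 throughout. The deleted gene could not check the genotypes, because Mc4r had 0, 0 and 2 reads in WT and 0 in each KO library, all under a floor of 3 reads.

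WT replicate 3 stood apart from the other WT mice. In a principal component analysis of 11297 genes it lay at -3.46 on the first component, which held 40.4% of the variance, against -34.2 and -27.9 for the other WT mice and 17.5 to 26.8 for the KO mice. Its correlation across genes was higher with KO replicate 1 (r = 0.962) than with WT replicates 1 (0.946) and 2 (0.952). Its summed FPKM of 6 atrial markers was 804, against 11.3 to 143 in the other 5 libraries. Its mitochondrial transcripts made up 47.1% of summed FPKM, compared with 59.3% and 57.4% in the other WT mice and 43.6%, 46.6% and 43.0% in the KO mice. Where this library changed a call or a count among the regulators or the genes named, values without it are also given.

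By level, the regulators formed 5 tiers. Rbm24 was the most abundant, at a mean of 54.4 FPKM over the 6 hearts, above 96.5% of the 18035 genes with a mean of at least 0.1 FPKM. Qk (31.1) and Rbm20 (30.1) came next and exchanged rank between libraries, with Qk higher in 3 of 6. Mbnl2 (16.1), Rbfox2 (13.9) and Celf1 (12.8) formed a middle tier in which neighbouring ranges overlapped, while all Mbnl2 values lay above all Celf1 values. Mbnl2 was above Rbfox2 in all 6 libraries. Rbfox1 (7.40), Ptbp1 (7.33) and Mbnl1 (7.07) had overlapping ranges, and Celf2 was lowest at 2.48 FPKM, near the middle of all genes tested. Rbfox1 was above Ptbp1 in all 3 WT hearts and below it in all 3 KO hearts. Each level rested on 364 to 7479 reads per library.

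**Figure D1:**
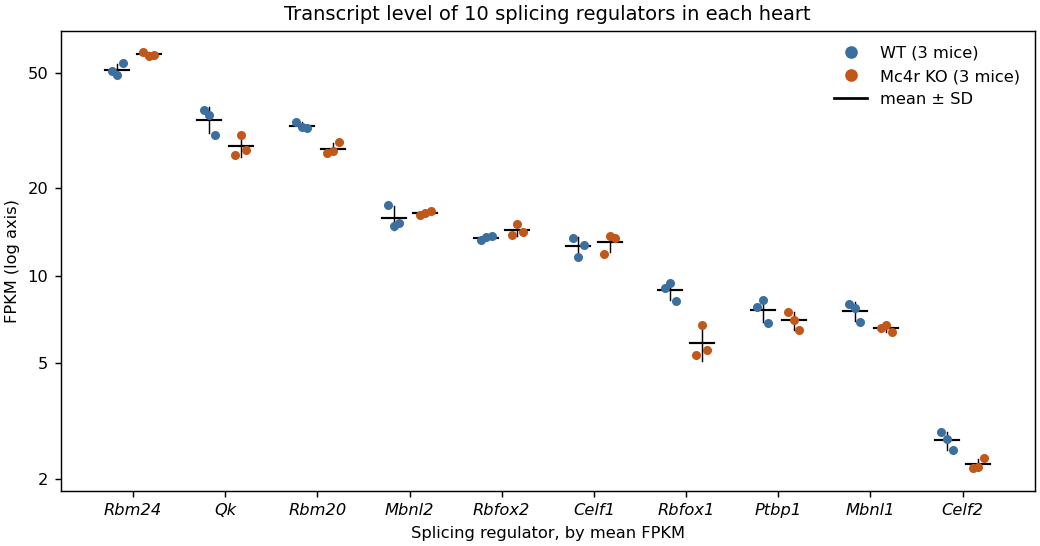
FPKM of each regulator (log axis) in the 3 WT (blue) and 3 KO (orange) hearts, ordered by mean level, with black lines for the mean and SD of each group. Rbfox1, Rbm20, Qk, Celf2 and Mbnl1 have all 3 KO points below the WT points, although those of Qk nearly touch at 30.4 FPKM, and Rbm24 and Rbfox2 have all 3 above.

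None of the 10 regulators passed the test between KO and WT. The test was limma on log2(FPKM + 0.1) across 18035 genes, and a gene was called at a Benjamini-Hochberg adjusted p under 0.05 with an absolute log2 fold change above 0.75. It called 83 genes, 0.46% of those tested, and 0.582% of genes had an adjusted p under 0.05 at any fold. At an unadjusted p under 0.05 stood 3 regulators, Rbfox1, Rbm20 and Qk, each lower in KO, where 20.9% of all genes tested reached that level. Without WT replicate 3 this count was 6, with Rbm24, Celf2 and Mbnl1 added, against 28.2% of all genes. It was 2, Qk being absent, without WT replicate 1 (against 14.5%), WT replicate 2 (15.9%), KO replicate 1 (16.3%) or KO replicate 3 (15.7%). With the mitochondrial share of each library as a covariate it was 0, against 10.7%. In limma voom, which models the recovered reads, 0 regulators were called and 1, Rbfox1, had an adjusted p under 0.05 (0.0274), which 4.52% of all genes tested had by that method.

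The KO and WT values did not overlap for 7 of the 10 regulators. They were lower in all 3 KO hearts for 5 (Rbfox1, Rbm20, Qk, Celf2 and Mbnl1), compared with 12.4% of all genes tested, and higher for 2 (Rbm24 and Rbfox2), compared with 14.1%. Without WT replicate 3 the values did not overlap for 8, with Ptbp1 added as lower in KO. The count was also 8 without WT replicate 1, with Mbnl2 added as higher. Values separate more easily by chance with a mouse left out. The share of all genes was not counted there, so nothing is drawn from these counts of 8. The median log2 difference of the 10 was -0.16, and that of all genes tested was -0.011. For any single gene an exact permutation test of 3 against 3 mice cannot give a p below 0.1. In whole tissue, fewer cells of a type and less RNA per cell cannot be told apart.

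Rbfox1 had the largest difference among the regulators. It encodes an RNA-binding protein of the RBFOX family, which binds GCAUG in introns near muscle and neuronal exons. The gene spans 1526 kb of chromosome 16 (GRCm38 chr16:5885355-7411526, plus strand; ENSMUSG00000008658). RefSeq (GRCm38.p6) gives it a distal and an internal start, and the gene-level FPKM pools transcripts from both. The 250 bases before each are shown because the difference in Rbfox1 cannot be assigned to either one. The distal window lies at chr16:5884543-5884792 and holds 2 CpG, the internal one lies at chr16:7069585-7069834 and holds 6, and the median of 32851 RefSeq windows of this length is 6. Both strands were searched for the TATA box with letters TATAAA, for the pentamer CCAAT that binds NF-Y, for the Sp1-binding box with letters GGGCGG and for the palindromic E-box with letters CACGTG. Neither window holds any of them, so no letter is in capitals.
Rbfox1 distal start: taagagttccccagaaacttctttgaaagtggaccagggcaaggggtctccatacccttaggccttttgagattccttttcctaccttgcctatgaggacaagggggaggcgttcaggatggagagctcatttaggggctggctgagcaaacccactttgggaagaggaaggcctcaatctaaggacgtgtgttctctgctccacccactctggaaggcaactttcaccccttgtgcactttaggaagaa
Rbfox1 internal start: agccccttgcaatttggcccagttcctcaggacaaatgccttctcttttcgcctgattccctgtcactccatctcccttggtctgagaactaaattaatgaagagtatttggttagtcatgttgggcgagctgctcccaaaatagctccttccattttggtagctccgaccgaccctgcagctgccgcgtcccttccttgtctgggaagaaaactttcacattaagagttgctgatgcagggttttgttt
Those motifs occur, in the same order, in 12.4%, 33.9%, 32.7% and 6.02% of all windows.

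Rbfox1 measured 9.08, 9.45 and 8.19 FPKM in the 3 WT hearts and 5.33, 6.79 and 5.54 in the 3 KO hearts. The groups were clearly apart, and KO replicate 2 lay nearest to WT. The means were 8.91 ± 0.643 and 5.89 ± 0.791 (SD, n = 3 each), 33.9% lower in KO. The log2 fold change was -0.59 (SE 0.121, 95% interval -0.88 to -0.31), with an adjusted p of 0.0756 by limma. Without WT replicate 3 it was -0.65, with an adjusted p of 0.0310, where 10.3% of all genes had one under 0.05. Rbfox1 rested on 364 to 614 reads per library, whose counting error at the mean count is a CV of 4.49%, below the spread of 7.23% among WT and 13.4% among KO mice.

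Its paralog Rbfox2, which recognises the same RNA motif and is expressed in many tissues, differed little (chr15:77078990-77307004, minus strand). Rbfox2 measured 13.3, 13.6 and 13.7 FPKM in WT and 13.8, 15.1 and 14.2 in KO. All KO values were above all WT values, but the nearest ones differed by less than their counting error (a CV of 2.39% at the mean count). The log2 fold change was 0.083 (SE 0.078, 95% interval -0.10 to 0.27; adjusted p = 0.578). The ratio of Rbfox1 to Rbfox2, which does not depend on how libraries are scaled, was 0.683, 0.696 and 0.597 in WT and 0.387, 0.450 and 0.391 in KO. Those ratios did not overlap between the groups, and the mean ratio was 0.658 ± 0.0540 in WT and 0.409 ± 0.0353 in KO.

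Rbm20 encodes the vertebrate muscle splicing repressor whose best known target is titin. It lies at chr19:53677306-53867080 (plus strand; ENSMUSG00000043639). An arginine- and serine-rich stretch of the protein, needed for its entry into the nucleus, is where variants in dilated cardiomyopathy cluster. The coding bases of that stretch are shown because they identify the transcript in which those variants fall. They were read from the GENCODE M21 transcript at chr19:53843224-53843274, in exon 9 of 14, with the 15 bases that encode the arginine- and serine-rich core in capitals.
Rbm20: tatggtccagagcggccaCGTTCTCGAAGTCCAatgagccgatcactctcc
No reads over these bases were analysed, and the values concern the abundance of the whole gene.

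Rbm20 measured 33.8, 32.5 and 32.1 FPKM in WT and 26.4, 26.9 and 28.8 in KO. Each KO heart was below each WT heart, WT replicate 3 included, with a gap wider than the spread within either group. The means were 32.8 ± 0.906 and 27.4 ± 1.23 FPKM (SD, n = 3 each), 16.6% lower in KO. The log2 fold change was -0.26 (SE 0.076, 95% interval -0.44 to -0.083; adjusted p = 0.128).

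Rbm24, the other muscle-enriched member of the set with an RBM name, encodes a protein that promotes inclusion of muscle exons and stabilises muscle mRNAs. The gene spans 12.7 kb (chr13:46418434-46431095, plus strand; ENSMUSG00000038132). Its start is shown beside those of Rbfox1 because Rbm24 had the largest difference in the opposite direction. The 250 bases before its RefSeq start, at chr13:46418050-46418299, hold 12 CpG and 62.4% G and C, against a median of 52.4% over all windows, and none of these 4 motifs.
Rbm24: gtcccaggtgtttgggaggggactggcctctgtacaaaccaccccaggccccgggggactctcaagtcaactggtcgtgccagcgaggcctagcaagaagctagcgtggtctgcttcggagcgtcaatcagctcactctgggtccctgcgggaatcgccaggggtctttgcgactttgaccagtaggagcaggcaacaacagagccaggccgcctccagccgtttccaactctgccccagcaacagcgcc
In WT hearts Rbm24 stood at 50.7, 48.9 and 53.9 FPKM, and in KO hearts at 58.8, 57.0 and 57.3. The KO values lay close together above all WT values. The difference was 12.7% of the WT mean, a log2 fold change of 0.17 (SE 0.075, 95% interval -0.0041 to 0.35; adjusted p = 0.249), and it was -0.022 when libraries were scaled to their FPKM outside the mitochondrial chromosome.

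The ratio of Rbm20 to Rbm24 was 0.667, 0.664 and 0.596 in WT and 0.450, 0.473 and 0.502 in KO, again without overlap. Rbm24 made up 26.2%, 26.4% and 29.5% of the summed FPKM of the 10 regulators in WT, and 33.6%, 31.3% and 32.2% in KO. The sum itself was 194, 185 and 183 FPKM in WT and 175, 182 and 178 in KO. The summed level thus differed less between the groups than the makeup of the set. These ratios were chosen with the members' values known, and no test was made of them.

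**Figure D2:**
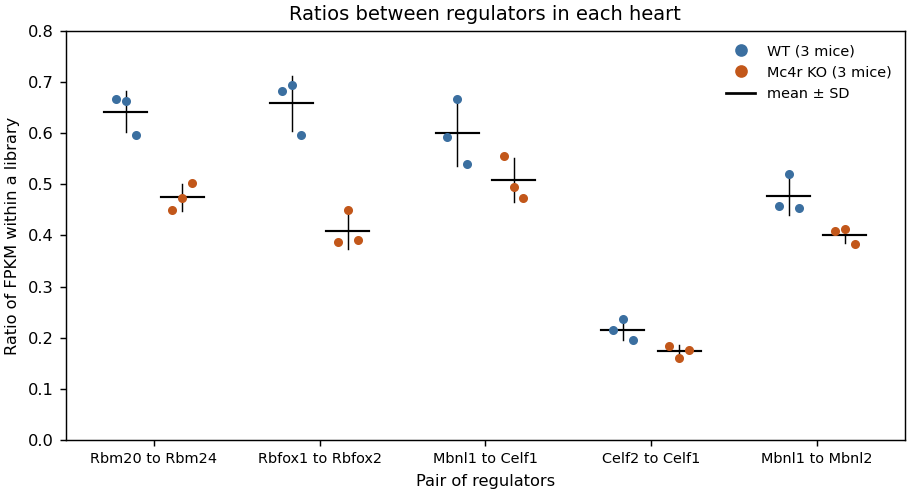
Ratio of FPKM between pairs of regulators within each library, for 3 WT (blue) and 3 KO (orange) hearts, with black lines for the mean and SD. The KO ratios lie below all WT ratios for every pair except Mbnl1 to Celf1, where KO replicate 1 (0.556) is above WT replicate 3 (0.540).

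Qk encodes Quaking, a STAR-family protein that binds ACUAA-type sites and acts in splicing, mRNA stability and circular RNA formation. It lies at chr17:10202601-10319854 (minus strand; ENSMUSG00000062078). Qk measured 37.2, 35.7 and 30.4 FPKM in WT and 26.1, 30.4 and 27.0 in KO. WT replicate 3 (30.42) and KO replicate 2 (30.41) were practically equal, so the groups were apart by 0.01 FPKM only. The log2 fold change was -0.30 (SE 0.107, 95% interval -0.56 to -0.052; adjusted p = 0.178). Without WT replicate 3 it was -0.39, with an adjusted p of 0.0452 by limma, where 10.3% of all genes had one under 0.05. Of 22 alternatives, that 1 alone gave Qk an adjusted p under 0.05, and 14 gave an unadjusted p under 0.05.

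The CELF proteins bind GU-rich sites and promote fetal exon choices, and MBNL proteins bind YGCY motifs and act against them at shared targets. Celf1 (chr2:90940382-91019497, plus strand) measured 13.5, 11.6 and 12.8 FPKM in WT and 11.9, 13.7 and 13.5 in KO. These values overlapped, with a log2 fold change of 0.043 (95% interval -0.19 to 0.28, adjusted p = 0.843 by limma). Celf2 (chr2:6539694-7509563, minus strand) measured 2.90, 2.74 and 2.51 FPKM in WT and 2.19, 2.19 and 2.36 in KO. Celf2 was lower in each KO heart, with a log2 fold change of -0.26 (SE 0.115, 95% interval -0.53 to 0.0098; adjusted p = 0.254). Exons of Gm26565 on the opposite strand cover 7.58% of its exonic bases, and whether reads were counted by strand is not given in the sources used here.

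Mbnl1 (chr3:60472830-60629750, plus strand) measured 8.02, 7.73 and 6.90 FPKM in WT and 6.62, 6.78 and 6.38 in KO. Its KO values were lower, by a small gap to WT replicate 3, and the log2 fold change was -0.19 (SE 0.095, 95% interval -0.41 to 0.033; adjusted p = 0.306). Mbnl2 (chr14:120275669-120431697, plus strand) measured 17.5, 14.8 and 15.2 FPKM in WT and 16.2, 16.4 and 16.6 in KO. Those ranges overlapped, with a log2 fold change of 0.054 (95% interval -0.16 to 0.27; adjusted p = 0.773). The Mbnl1 to Mbnl2 ratio was 0.458, 0.521 and 0.454 in WT and 0.409, 0.413 and 0.384 in KO. The Celf2 to Celf1 ratio was 0.214, 0.236 and 0.196 in WT and 0.184, 0.160 and 0.176 in KO. In both of these pairs, as in the RBFOX pair, the KO ratios were all below the WT ratios. Mbnl1, Celf2 and Rbfox1 each have a lower GC content than their partner, in the longest transcript of each gene. With the GC trend removed, the log2 difference in ratio went from -0.24 to -0.039 for Mbnl1 to Mbnl2, from -0.30 to -0.21 for Celf2 to Celf1 and from -0.68 to -0.53 for Rbfox1 to Rbfox2.

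Ptbp1, the polypyrimidine tract binding protein that represses muscle and neuronal exons in dividing cells, showed no separation. It measured 7.78, 8.27 and 6.89 FPKM in WT and 7.52, 7.04 and 6.50 in KO, with a log2 fold change of -0.12 (SE 0.107, 95% interval -0.37 to 0.13; adjusted p = 0.562). The gene lies at chr10:79854427-79864771 (plus strand), and 20.7% of its exonic bases are covered by exons on the opposite strand. Reads from those overlaps cannot be told apart without strand.

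**Figure D3:**
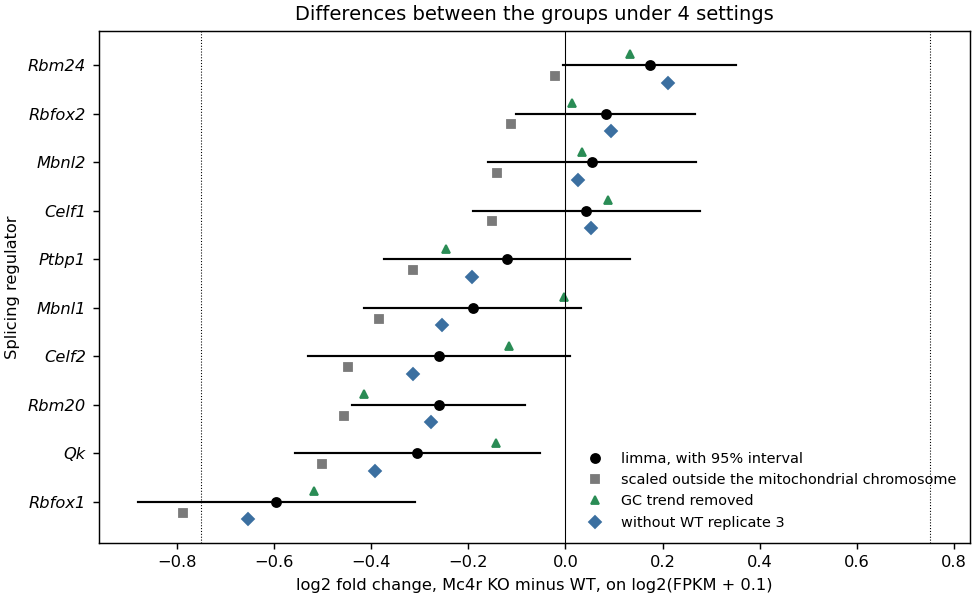
log2 fold change of each regulator, KO minus WT, from limma on log2(FPKM + 0.1) with its 95% interval (black), and the point estimates after scaling outside the mitochondrial chromosome (grey squares), after removal of the GC trend (green triangles) and without WT replicate 3 (blue diamonds). Dotted lines mark the call threshold of 0.75, and only Rbfox1, at -0.79 under the mitochondrial-free scaling, passes it in any of these.

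Several library properties moved with the groups. Mitochondrial transcripts took a larger share in WT, and with that share as a covariate the log2 fold changes were -0.37 for Rbfox1, -0.23 for Rbm20, -0.027 for Qk and -0.010 for Mbnl1. GC content moved as well: in the study's read statistics it was higher in each KO library than in each WT library, narrowly so for WT replicate 3. The 4 regulators with under 45% G and C in their longest transcript (Rbfox1, Qk, Celf2 and Mbnl1) were all lower in KO. Rbm20 and Ptbp1, at 54.9% and 53.7%, also had lower estimates in KO. Whether GC content has a part in these differences was not tested. After removal of a smooth GC trend the values were -0.52 for Rbfox1, -0.41 for Rbm20, -0.14 for Qk, -0.12 for Celf2 and -0.0037 for Mbnl1. The difference of Rbm20, at 54.9% GC, was thus larger after this step, that of Rbfox1 was somewhat smaller, and those of Qk, Celf2 and Mbnl1 were much smaller.

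Cell type markers moved too. Summed cardiomyocyte markers were 15680, 16110 and 14820 FPKM in WT and 18010, 19650 and 18750 in KO, with none of 10 called, and Actc1, the most abundant, was at 5495, 5470 and 4568 in WT and 7123, 8307 and 7188 in KO. Without Actc1 the sums were 10190, 10640 and 10250 in WT and 10890, 11340 and 11560 in KO, and of the 10 markers 7 had a higher and 3 (Pln, Ttn and Tnni3) a lower estimate in KO. Fibroblast markers summed to 254, 263 and 291 in WT and 232, 204 and 198.2 in KO, with 0 of 8 called and Dcn the most abundant. Without Dcn the sums overlapped, at 129, 139 and 182 in WT and 145, 127 and 115 in KO. Of the 8 markers 6 had a lower estimate in KO, and Col1a1 and Col1a2 a higher one. Of those 6, 3 (Dcn, Lum and Pdgfra) were lower without overlap (12.4% among all genes). Summed red cell markers, led by Hbb-bs, ran from 860 to 6344 in WT and from 620 to 1651 in KO. The part of these shifts in the regulators' differences was not tested.

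The summed levels of the other marker lists overlapped between the groups, except that of adipocytes, which was near 0. Single markers did not always follow the sums: Tie1, Flt1 and Egfl7 of 8 endothelial markers were higher in all 3 KO hearts (14.1% among all genes). Of 8 macrophage markers, Csf1r, Cd68 and Mrc1 were lower in all 3 (12.4% among all genes), and 4, C1qa, C1qb, Cd163 and Lyz2, had higher estimates in KO. Endothelial sums (Cdh5 the most abundant) were 209, 225 and 185 FPKM in WT and 234, 238 and 204 in KO, smooth muscle and pericyte sums (Rgs5) were 330, 327 and 265 against 313, 333 and 233, and macrophage sums (Lyz2) were 207, 184 and 286 against 289, 246 and 228. Neuronal and Schwann cell sums (Stmn2) lay between 3.11 and 4.69 FPKM with Th listed at 0, and skeletal muscle was led by Tnni2. Adipocyte sums (Cfd) were 0.467, 0.913 and 1.02 in WT and 0.328, 0.0283 and 0.112 in KO, with Lep and Retn listed at 0. Atrial sums were led by Nppa. No gene in any marker list was called.

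Among the other sequence-specific splicing regulators, 23 of 32 genes were tested and 0 were called; the median log2 difference was -0.083. Rbm38, an RNA-binding protein that acts in muscle differentiation, was at 35.7, 33.8 and 35.5 FPKM in WT and 56.4, 66.0 and 51.0 in KO. All 3 KO hearts were far above WT, with an adjusted p of 0.0482 by limma and a log2 fold change of 0.71 (SE 0.107), just under the fold threshold. Rbm38 held an adjusted p under 0.05 in 8 of 22 alternatives, and its log2 fold change was 0.41 after removal of the GC trend (adjusted p = 0.170). Khdrbs3, a STAR-family relative of Quaking, went from 11.3 ± 0.615 to 14.7 ± 0.766 FPKM (log2 fold change 0.37, adjusted p = 0.0944 by limma). Without WT replicate 3 its adjusted p was 0.0309, where 10.3% of all genes had one under 0.05. Celf6, Raver1, Esrp1 and Khdrbs2 were listed at 0 in every library.

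No gene of the general splicing machinery was called either. Of 12 SR and Tra2 proteins tested, which bind exonic enhancers, Srsf9 was at 6.90 FPKM in WT and 8.96 in KO (adjusted p = 0.123) and Srsf11 at 7.87 and 6.31 (0.194). Of 23 hnRNP proteins, Pcbp1 was at 56.8 and 74.9 FPKM (adjusted p = 0.0996) and Syncrip at 6.66 and 4.91 (0.110). Of 9 kinases that act on splicing factors, Srpk2 was at 4.28 and 3.17 FPKM (adjusted p = 0.140) and Clk1 at 10.3 and 8.23 (0.184), both with KO below WT in every library. Of 38 core spliceosome genes, 10 were higher and 1 lower at an unadjusted p under 0.05, which 20.9% of all genes tested reached. Among all 18035 genes tested, 2169 were higher and 1592 lower at that level. The median log2 difference of the core spliceosome genes was 0.11. Sf3b5 and Snrpf, which encode small proteins of the U2 particle and of the Sm ring, had the smallest p. Sf3b5 was at 4.80 FPKM in WT and 6.78 in KO (adjusted p = 0.135) and Snrpf at 6.78 and 9.71 (0.140). Without WT replicate 3, 10.3% of all genes had an adjusted p under 0.05 by limma. That value was then 0.0372 for Srsf11, 0.0166 for Pcbp1, 0.0263 for Syncrip, 0.0276 for Srpk2, 0.0222 for Sf3b5 and 0.0313 for Snrpf. Each of these genes was still under the fold threshold.

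Without that library 5 genes of the related lists were called, and they are named here after their values were seen. The share of all genes called without it was 4.04%, and a count of 5 in these lists is near that share. The 5 were Snrpg (log2 fold change 2.31, and 1.55 with all libraries at an adjusted p of 0.195), Snrpd2 (1.37, and 0.97 at 0.156), Snrpb (0.84, and 0.60 at 0.150), Snrpd1 (-0.93, and -0.66 at 0.164) and Hnrnpa0 (0.86, and 0.52 at 0.313). Snrpg was at 1.45, 1.46 and 7.52 FPKM in WT and 7.55, 7.63 and 7.70 in KO, so that WT replicate 3 stood with the KO hearts. Snrpd1 was at 17.5, 19.1 and 10.4 FPKM in WT and 8.93, 10.5 and 9.23 in KO, with the same WT library beside KO.

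Of 28 cardiac transcripts known to be spliced by such regulators, 0 were called and the median log2 difference was -0.0085. Pdlim5, which encodes a Z-disc protein of the enigma family with muscle-specific isoforms, was at 59.8, 54.6 and 51.7 FPKM in WT and 83.9, 102.9 and 91.4 in KO. Its log2 fold change was 0.74 (SE 0.104) with an adjusted p of 0.0430, which met the p threshold and not the fold threshold. Pdlim5 held an adjusted p under 0.05 in 10 of 22 alternatives, and was called in 2 of them, after removal of the GC trend (0.84, adjusted p = 0.0211) or of the length trend (0.81, adjusted p = 0.0338). Mef2a, a muscle transcription factor with a regulated exon, was at 14.87, 13.97 and 13.05 FPKM in WT and 9.90, 9.50 and 9.63 in KO. Its log2 fold change was -0.52, with an adjusted p of 0.0554 by limma. Without WT replicate 3 that adjusted p was 0.0143, where 10.3% of all genes had one under 0.05. Titin, the main known target of RBM20, was added after its values were seen. Total Ttn was at 29.3, 31.4 and 24.9 FPKM in WT and 21.9, 28.7 and 31.2 in KO, which overlapped (log2 fold change -0.075, SE 0.152, adjusted p = 0.819).

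**Figure D4:**
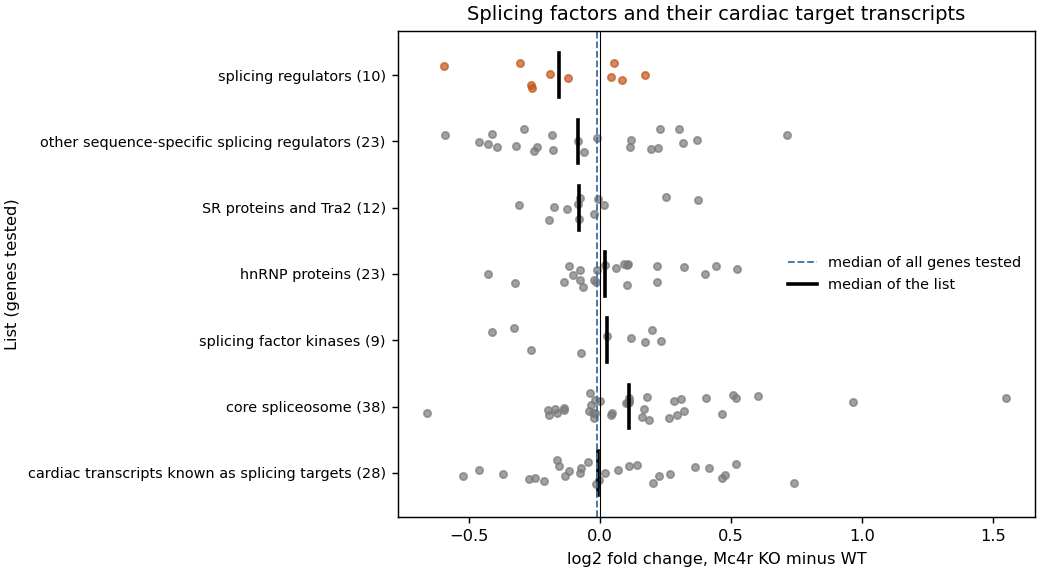
log2 fold change of each gene tested, KO minus WT, for the 10 regulators (orange) and for the related lists of splicing factors and target transcripts (grey). Black bars are list medians and the dashed line is the median of all genes tested (-0.011); the list medians lie between -0.16 for the 10 regulators and 0.11 for the core spliceosome.

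The genes whose pattern over the 6 libraries was nearest to each of the 3 regulators with the smallest p were found among 11297 genes, as the root-mean-square difference of centred log2 values. For Rbfox1 they were Asnsd1 (0.0463), Gpd2 (0.0664) and Zfp948 (0.0675). For Rbm20 they were Pard3b (0.0152), Smarcc1 (0.0240) and Cpeb4 (0.0249), and for Qk they were Tgs1 (0.0275), Nbn (0.0340) and Nsa2 (0.0410). None of these 9 was among the other regulators of the set.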

How the data were processed

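The study sequenced polyA-selected RNA of 6 hearts. The authors aligned paired reads with HISAT2 2.0.5 (mm10 per the submitters' processing notes), counted reads per gene with featureCounts, and deposited 1 table of FPKM per gene and library with gene lengths; the annotation release and strand setting are not given in the sources used here. The deposited FPKM times gene length gave whole reads for 100% of values (within 0.02 reads); 1 read was worth 0.0587 to 0.0709 FPKM in a gene of 1 kb, which sets the precision.

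All genes whose mean over the 6 libraries reached 0.1 FPKM entered limma 3.58.1 (R 4.3.3) on log2(FPKM + 0.1), with empirical Bayes variance and a mean-variance trend, two-sided, without covariates, adjusted by Benjamini-Hochberg over 18035 genes. Fold changes are on that scale, which understates those of low genes. Median-of-ratios factors were equal in all 6 libraries, and the FPKM of 1 read at 1 kb times the reads on genes ranged from 942200 to 1047000, so the deposited FPKM may hold size-factor scaling in place of scaling per mapped fragment. The study tested counts, and the thresholds of its methods were kept; a fold threshold of 1.5, which it also states, was tried after seeing the data. The fit was tested on simulated data. limma voom on the recovered reads was an alternative.

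The members, lists and tests were chosen with earlier results of these data known. Named were the 10 members; in each splicing or target list every called gene or, with fewer than 2, the 2 of smallest p with a mean FPKM of at least 1; in each marker list the most abundant gene and those at 0; and the 3 genes nearest to each of the 3 members of smallest p. Other genes of the marker lists were named after their values were seen, for their direction or lack of overlap. Of the gene IDs, 99.8% matched GENCODE M21 (GRCm38), the lengths of all 10 members equalled their M21 exon union, and no member shared a 50-base word with another. RefSeq promoter windows were found for 8 of the 10. Settings tried were the pseudocount, filter, scaling, variance model, library weights, replicate block, mitochondrial covariate, protein-coding genes only and each library left out; removal of a GC or length trend (lowess, span 0.3) was chosen after seeing the data.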

Additional observations from a re-analysis of the deposited data

How the results depend on the processing

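No regulator was called under any of the 22 alternatives fitted across genes, and the estimates of Rbfox1, Rbm20, Qk, Celf2 and Mbnl1 were negative in all 22, although near 0 in some. Among the 22, the FPKM as deposited could only repeat the main fit, because the median-of-ratios factors were equal in all libraries. It is included wherever a count out of 22 is given. The log2 fold change ran from -0.79 to -0.37 for Rbfox1 (adjusted p 0.0273 to 0.514), from -0.46 to -0.23 for Rbm20 (0.0647 to 0.538), from -0.50 to -0.027 for Qk (0.0452 to 0.954), from -0.45 to -0.10 for Celf2 and from -0.38 to -0.0037 for Mbnl1. The number of regulators at an adjusted p under 0.05 was 1 with array weights, with limma voom and with protein-coding genes only, Rbfox1 each time, where 6.37%, 4.52% and 3.40% of all genes had one, and 0 to 2 when a library was left out, with 2 (Rbfox1 and Qk, against 10.3% of all genes) without WT replicate 3. The direction reversed for Rbm24 (-0.022), Rbfox2 (-0.11), Celf1 (-0.15) and Mbnl2 (-0.14) when libraries were scaled outside the mitochondrial chromosome, for Rbfox2 (-0.030), Celf1 (-0.068) and Mbnl2 (-0.055) with quantile normalization, for Celf1 with a library left out (-0.020 without WT replicate 2, up to 0.11 without Mc4r KO replicate 1), and for Ptbp1 (0.063) with the mitochondrial share as a covariate. Scaling outside the mitochondrial chromosome moved the median of all genes by -0.18 by construction. The other causes were not tested.

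Calls among all genes, 83 as reported above, numbered 44 with a pseudocount of 1, 22 without a filter, 147 at a mean FPKM of at least 1, 49 with quantile normalization, 41 with scaling outside the mitochondrial chromosome (39.0% higher in KO, against 68.7%), 21 without a trend, 435 with array weights, 2 with the mitochondrial covariate, 314 by limma voom, 204 among protein-coding genes and 7 to 726 with a library left out. The 726 came without WT replicate 3. Removal of the GC trend left 65 calls, 56.9% of them higher. Calls in the related lists, 0 as reported above, numbered 3 with array weights (Snrpd1, Snrpd2 and Snrpg), 1 after removal of the GC trend and 1 after removal of the length trend (Pdlim5 both times), 2 at a fold threshold of 1.5 (Rbm38 and Pdlim5; 103 of all genes and no regulator), and 0 to 5 with a library left out, with 5 without WT replicate 3. With a replicate block 11 genes were called and no regulator. Same-numbered mice did not deviate together (r = -0.141, 0.00735 and -0.0818 over genes). Deviations from the mean of 3 mice are tied to one another, so these values cannot decide whether the numbers pair the mice. Litters are not given in the sources used here.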
